A study of Homo sapiens with 4 samples.

Results

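The genes described here encode the PAR, Crumbs and Scribble polarity complexes, which set the apical and basolateral surfaces of an epithelial cell apart. They are PARD3, PARD6B and PRKCI of the PAR complex, PATJ, PALS1 and CRB3 of the Crumbs complex, LLGL2, SCRIB and DLG1 of the Scribble module, and the kinase MARK2. Every probe set annotated to 1 of these 10 gene symbols alone was taken, with PALS1 and PATJ also searched under their older names MPP5 and INADL. This gave 31 of the 54675 probe sets on the array, and 24 of them, covering all 10 genes, passed the filter on low signal.

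In epithelia the PAR proteins assemble at the apical border: PARD3 and PARD6B are PDZ-domain scaffolds and PRKCI is the atypical protein kinase C that PARD6B holds and regulates. The Crumbs complex marks the apical membrane, with the small transmembrane protein CRB3 joined through the linker PALS1 to the multi-PDZ scaffold PATJ near tight junctions. LLGL2, SCRIB and DLG1 work on the basolateral side, and the apical and basolateral groups exclude each other, in part because PRKCI phosphorylates LLGL2 and MARK2 while MARK2 phosphorylates PARD3. In colorectal carcinoma lines these genes are studied as part of the epithelial state, and the repressor ZEB1, which binds the letters CACCTG, has been reported to lower CRB3, PATJ and LLGL2 in carcinoma cells.

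The cells were T84, a line from a human colorectal carcinoma that polarises when grown on permeable filters, and every group was grown that way and transfected with 15 pmol of short RNA. The 4-miRNA array measured cells that received 4 oligonucleotides, for miR-33a, miR-210, miR-451 and miR-338-3p, and the 2-miRNA array cells that received those for miR-451 and miR-338-3p, both taken after 5 days. The control arrays held cells given a short RNA with minimal homology to human miRNAs, collected after 7 days (day 7 control) or 5 days (day 5 control). Affymetrix U133 Plus 2.0 arrays measured messenger RNA, with 1 array for each of the 4 groups. Nothing could be tested across samples, no p-value is printed, and precision is limited by the number of arrays. The labels do not say whether 15 pmol was the total of a mix. MicroRNAs are short RNAs that lower the level or translation of messenger RNAs with matching sites, chiefly through bases 2 to 8, the seed.

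The sequences below are the RefSeq mature forms on GRCh38.p14, shown because they are what the miRNA cells received, with the seed in capitals. The labels name an arm for miR-338-3p alone; for miR-210 and miR-33a the arm that the name without a suffix has usually stood for is printed. The 3 seeds differ from each other, and miR-451 is named only.
miR-338-3p: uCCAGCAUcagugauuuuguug
miR-210-3p: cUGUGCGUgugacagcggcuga
miR-33a-5p: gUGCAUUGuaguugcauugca

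Each array was scaled so that its mean signal, without the lowest and highest 2% of probe sets, was 500, and a log2 difference is that of scaled signal plus 32, which understates differences of dim probe sets. Before scaling, the trimmed means were 150 (4-miRNA), 147 (2-miRNA), 74.3 (day 7 control) and 76.6 (day 5 control), so array brightness and miRNA treatment cannot be told apart. After scaling the median of all genes was still −0.15 for the 4-miRNA array and −0.16 for the 2-miRNA array against the day 5 control. A probe set SD was taken from the 2 brightest kept probe sets of 2625 genes, both with a mean log2 of 9 or more. It is the SD of the difference between their log2 differences, divided by the square root of 2. It was 0.58 for each miRNA array against the day 5 control, 0.18 between the miRNA arrays and 0.27 between the controls. Against the day 7 control it was 0.51 with 4 miRNAs and 0.52 with 2 miRNAs. It does not cover dimmer probe sets, and it leaves out variation between cultures, which was not measured. All 14 colon epithelium markers were kept, with a summed signal of 207372 to 228502 on the miRNA arrays and 219491 to 294681 on the controls. Of the fibroblast, leukocyte and endothelium markers 3 of 8, 3 of 7 and 1 of 5 were kept. The leukocyte sum was 827 and 710.4 on the 4-miRNA and 2-miRNA arrays, against 475 and 385 on the day 7 and day 5 controls, and LYZ, also made by intestinal secretory cells, gave 462 and 489.6 of it on the miRNA arrays and 144 and 111 on the controls. PTPRC, the defining leukocyte marker, lay under the array median on every array.

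PARD6B and PATJ were higher in both miRNA arrays than in both controls by more than 2-fold, and no other member was. Over all 12264 kept genes, 3.12% were higher in both miRNA arrays than in both controls by at least 2-fold. Counting any gap, 3 of 10 polarity genes (PARD6B, PATJ and PALS1) had both miRNA arrays above both controls, against 22.8% of all genes, and 4 of 10 (PARD3, PRKCI, LLGL2 and MARK2) had both below, against 41% of all genes. CRB3, SCRIB and DLG1 overlapped between the pairs. These counts take the representative probe set of each gene, the kept one with the highest mean. Other kept probe sets can differ: 213518_at of PRKCI had both miRNA arrays above both controls, and 202514_at of DLG1 had both below. With the array medians set equal, 5 of the 10 had both miRNA arrays above and 3 both below, against 33.6% and 24.6% of all genes. The miRNA arrays held different mixes and the controls different days, so neither pair is a set of replicates. In these bulk samples fewer cells with a transcript and less of it per cell cannot be told apart.

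**Figure D1:**
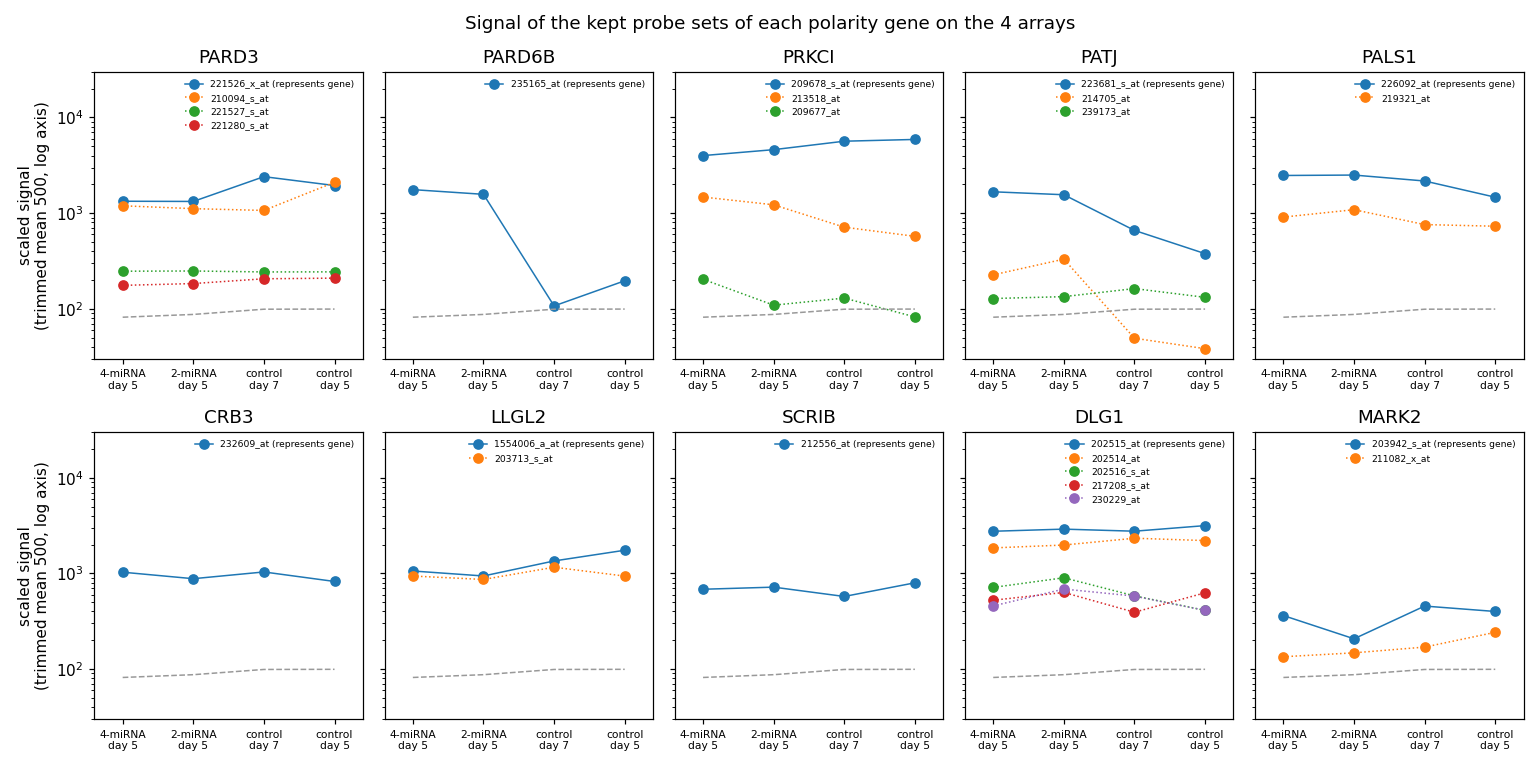
Scaled signal (log axis) of the 24 kept probe sets of the 10 polarity genes on each array, miRNA arrays on the left and controls on the right. Solid lines join the points of the probe set that represents the gene, dotted lines those of its other kept probe sets, and the grey dashed line is the median of all probe sets on each array. PARD6B stands at 1762 and 1573 on the miRNA arrays and at 107 and 196 on the controls, and PATJ at 1672 and 1558 against 660.0 and 377.

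PARD6B, the scaffold that brings CDC42 and the atypical kinase together, had the largest difference of the 10 genes. Its only kept probe set, 235165_at, had a scaled signal of 1762 on the 4-miRNA array, 1573 on the 2-miRNA array, and 107 (day 7) and 196 (day 5) on the control arrays. Both miRNA arrays were far above both controls, and the day 7 control lay close to that array's median of all probe sets, 98.99. The log2 difference from the day 5 control was 2.97 with 4 miRNAs, rank 11 from the highest of 12264 genes, and 2.81 with 2 miRNAs, rank 22. Against the day 7 control the differences were 3.69 and 3.53; that control is so close to the array median that these sizes are loose, and they ran from 3.26 to 3.94 over the other settings tried. PARD6B was lower on day 7 than on day 5 in control cells (−0.71). The miRNA arrays differed from each other by 0.16, less than the probe set SD of 0.18. The other 2 probe sets of PARD6B, 214827_at and 211907_s_at, were under the median of every array, between 5.15 and 60.4 scaled units, and give no check of the first. The difference therefore rests on 1 probe set, and RefSeq also lists 1 pseudogene of PARD6B, whose part in the signal was not tested.

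PRKCI, the atypical protein kinase C of the PAR complex, was higher or lower depending on the probe set. Its brightest probe set, 209678_s_at, had 3998 on the 4-miRNA array, 4610.15 on the 2-miRNA array, and 5651 (day 7) and 5896 (day 5) on the control arrays. By this probe set both miRNA arrays were below both controls, with differences of −0.56 for 4 miRNAs and −0.35 for 2 miRNAs against day 5. Probe set 213518_at had 1474 and 1222 on the 4-miRNA and 2-miRNA arrays, against 713 and 572 on the day 7 and day 5 controls. Here the miRNA arrays were the higher ones, by 1.32 and 1.05 against day 5. The dim probe set 209677_at read 203, 109, 129 and 82.2 in the same order of arrays, at least 2.05-fold higher with 4 miRNAs than the median of the day 5 control. No direction can be given for PRKCI as a gene, and RefSeq lists 1 pseudogene of it.

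PARD3, the scaffold that recruits the complex to forming junctions, was lower or level. Its representative probe set, 221526_x_at, had 1332 on the 4-miRNA array, 1325 on the 2-miRNA array, and 2407 (day 7) and 1944 (day 5) on the control arrays. Both miRNA arrays were below both controls, with differences against day 5 of −0.53 and −0.54, inside the probe set SD of 0.58. Against day 7 they were −0.84 with 4 miRNAs and −0.85 with 2 miRNAs, past the probe set SD of 0.51 and 0.52. A second bright probe set, 210094_s_at, had 1194, 1114, 1067 and 2102 on the same arrays in the same order. It gave −0.80 with 4 miRNAs and −0.90 with 2 miRNAs against day 5, but 0.16 and 0.06 against day 7. By that one the day 5 control alone stood high, and the day 7 control differed from it by −0.96, while 221526_x_at gave 0.30 for the same pair. The other kept probe sets, 221527_s_at and 221280_s_at, ranged from −0.22 to 0.03 in the comparisons of the miRNA arrays with the day 5 control.

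Genes of the Crumbs complex mostly read higher in the miRNA cells than in the day 5 control: of their 6 kept probe sets, 5 were above 0 with 4 miRNAs and 6 with 2 miRNAs against the day 5 control, with medians of 0.53 and 0.66. All 6 were also above 0 on day 7 against day 5 in control cells, with a median of 0.28. Against the day 7 control 4 of the 6 were above 0 with either mix and 2 below, with medians of 0.22 for 4 miRNAs and 0.35 for 2 miRNAs. Over all kept probe sets 42.7% (4 miRNAs) and 44.4% (2 miRNAs) were above 0 against the day 5 control, and 50.1% between the controls. The medians there were −0.12, −0.09 and 0.00. Against the day 7 control 41.2% (4 miRNAs) and 43.4% (2 miRNAs) of all kept probe sets were above 0, with medians of −0.13 and −0.10. The 3 comparisons share the day 5 control array, and probe sets of a gene are not independent.

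PATJ, the scaffold that ties the Crumbs complex to tight junction proteins, was the second gene past 2-fold. Probe set 223681_s_at had 1672 on the 4-miRNA array, 1558 on the 2-miRNA array, and 660.0 (day 7) and 377 (day 5) on the control arrays. The 4-miRNA array was highest and the day 5 control lowest, with both miRNA arrays above both controls. The difference from the day 5 control was 2.06 with 4 miRNAs (rank 123 of 12264) and 1.96 with 2 miRNAs (rank 160), and from the day 7 control 1.30 and 1.20. The day 7 control was 0.76 above the day 5 control. Probe set 214705_at read 226, 330.4, 49.2 and 38.3 on the same arrays, under the array median in both controls, so its fold is a lower bound: at least 2.28-fold with 4 miRNAs and at least 3.33-fold with 2 miRNAs against day 5. Probe set 239173_at was level, with 128, 134, 163 and 132. With probe sets of the kinds _s_at, _x_at and _a_at left out, 239173_at stands for the gene and the difference against day 5 is −0.03 with 4 miRNAs and 0.02 with 2 miRNAs.

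PALS1, which links CRB3 to PATJ and to PARD6B, was higher in the miRNA cells on both of its probe sets. Probe set 226092_at had 2476 on the 4-miRNA array, 2501 on the 2-miRNA array, and 2168 (day 7) and 1467 (day 5) on the control arrays. The day 5 control stood lowest and the day 7 control lay near the miRNA arrays. The differences from day 5 were 0.74 with 4 miRNAs, 0.76 with 2 miRNAs and 0.55 for the day 7 control, and those from day 7 were 0.19 and 0.20. Probe set 219321_at had 909 and 1087 on the 4-miRNA and 2-miRNA arrays, against 759 and 729.96 on the day 7 and day 5 controls. Its differences from day 5 were 0.31 and 0.55, both inside the probe set SD of 0.58.

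CRB3, the apical transmembrane protein that organises the complex, stayed close to level on its only probe set, 232609_at. It had 1029 on the 4-miRNA array, 880.1 on the 2-miRNA array, and 1035 (day 7) and 823 (day 5) on the control arrays. The miRNA and control arrays overlapped, and the differences from day 5 were 0.31 with 4 miRNAs and 0.09 with 2 miRNAs.

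The promoters of PATJ and CRB3 are shown because both genes have been reported as targets of ZEB1, and the letters CACCTG on either strand (CACCTG or CAGGTG) are in capitals. Of the 10 genes, 6 matched the RefSeq promoter table, with 11 windows running from 250 bases before to 50 bases after a start. PATJ is at chr1:61742230-61742529 and CRB3 at chr19:6464021-6464320 (GRCh38.p14, plus strand for both).
PATJ: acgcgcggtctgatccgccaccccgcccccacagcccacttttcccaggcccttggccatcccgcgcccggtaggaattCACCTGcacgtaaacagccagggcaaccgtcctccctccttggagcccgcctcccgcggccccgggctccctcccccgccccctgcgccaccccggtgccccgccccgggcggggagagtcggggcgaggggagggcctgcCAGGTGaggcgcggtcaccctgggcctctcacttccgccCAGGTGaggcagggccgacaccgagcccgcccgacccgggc
CRB3: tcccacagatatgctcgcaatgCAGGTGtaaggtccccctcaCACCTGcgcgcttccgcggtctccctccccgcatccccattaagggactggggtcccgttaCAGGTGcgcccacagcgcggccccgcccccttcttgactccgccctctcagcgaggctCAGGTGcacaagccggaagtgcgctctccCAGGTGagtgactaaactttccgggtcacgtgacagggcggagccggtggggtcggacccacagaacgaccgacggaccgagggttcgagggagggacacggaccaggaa

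The PATJ window holds 3 matches and the CRB3 window 5. Of 35116 promoter windows of the same length, 20.6% hold at least 1 match, 0.635% hold 3 or more and 0.094% hold 5 or more. Among the other windows, 1 of MARK2 holds 2 matches and 1 of DLG1 holds 1, and those of PRKCI and PALS1 hold none. No window was matched for PARD6B, PARD3, LLGL2 or SCRIB. The PATJ and CRB3 windows are 76% and 65.7% G or C, beside a median of 58.7% over all windows. With 4 miRNAs PATJ differed from the day 5 control by 2.06 on 223681_s_at and 1.88 on 214705_at, but by −0.03 on 239173_at. CRB3 differed by 0.31 on its only probe set. Matches of letters are a description and say nothing about binding, and any link to these differences was not tested.

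Scribble module genes did not reach 2-fold on a representative probe set in any comparison: their differences from the day 5 control were all below 0, as were those of 6 of the 10 polarity genes and of the median gene. With the array medians set equal, the median gene stood at 0.12 with 4 miRNAs and 0.01 with 2 miRNAs, SCRIB turned to 0.06 and 0.03, DLG1 to 0.09 and 0.06, and MARK2 to 0.13 with 4 miRNAs, while LLGL2 stayed below 0 (−0.43 and −0.69). LLGL2, which restrains the PAR complex at the lateral membrane, had the lowest values among them. Probe set 1554006_a_at had 1059 on the 4-miRNA array, 939.8 on the 2-miRNA array, and 1349 (day 7) and 1746 (day 5) on the control arrays. Both miRNA arrays were below both controls, by −0.70 and −0.87 against day 5 and by −0.34 and −0.51 against day 7. The second probe set, 203713_s_at, had 938, 864, 1160.0 and 937 on the same arrays, which gives 0.00 and −0.11 against day 5. The 2 probe sets thus share a direction against the day 7 control but not against the day 5 control with 4 miRNAs.

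SCRIB, the large basolateral scaffold, had 683 on the 4-miRNA array, 718 on the 2-miRNA array, and 574 (day 7) and 797 (day 5) on the control arrays. The miRNA arrays lay between the controls, whose difference of −0.45 was larger than that of either miRNA array from day 5 (−0.21 with 4 miRNAs and −0.14 with 2 miRNAs).

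DLG1, a PDZ and guanylate kinase-like scaffold of the lateral membrane, was level on its 2 brightest probe sets and mixed on the rest. Probe set 202515_at had 2758 and 2903 on the 4-miRNA and 2-miRNA arrays, against 2762 and 3159 on the day 7 and day 5 controls. Probe set 202514_at had 1847 and 1979 on the miRNA arrays, against 2332 and 2204 on the controls in the same order. Against day 5 these gave −0.19 and −0.25 with 4 miRNAs, and −0.12 and −0.15 with 2 miRNAs. Probe set 202516_s_at alone put both miRNA arrays above both controls (714 and 900.2 against 582 and 411), and it reached 1.07 with 2 miRNAs. Probe sets 217208_s_at and 230229_at ranged from −0.24 to 0.70 against day 5, with the miRNA arrays overlapping the controls.

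MARK2, the PAR-1 kinase of the basolateral side, was lower on the 2-miRNA array. Probe set 203942_s_at had 362 on the 4-miRNA array, 207 on the 2-miRNA array, and 455 (day 7) and 399.85 (day 5) on the control arrays. The 2-miRNA array stood apart, at −0.85 against day 5 and −1.03 against day 7. Probe set 211082_x_at had 134, 148, 169.6 and 242 on the same arrays, which gives −0.72 with 4 miRNAs and −0.61 with 2 miRNAs against day 5 but −0.17 with 2 miRNAs against day 7. RefSeq lists 21 pseudogenes of MARK2, and which copies these probe sets match was not tested.

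**Figure D2:**
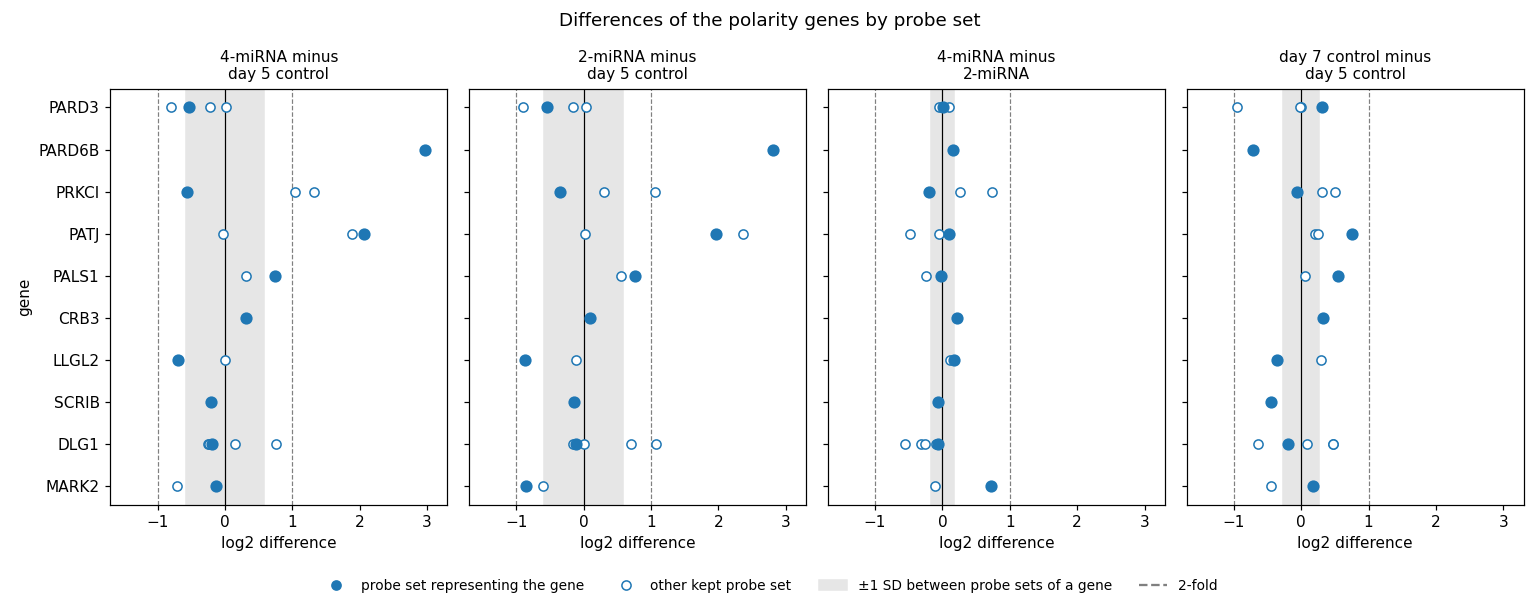
Log2 differences (signal plus 32) of the 10 polarity genes in 4 comparisons. Filled points are the probe set that represents the gene and open points its other kept probe sets. The grey band is 1 probe set SD on either side of 0, and dashed lines mark 2-fold. PARD6B (2.97 and 2.81) and PATJ (2.06 and 1.96) lie past 2-fold in both miRNA comparisons with the day 5 control, PRKCI lies on both sides of 0, and the panels of the 2 miRNA arrays and of the 2 controls hold no point past 2-fold.

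In the comparison of 4 miRNAs with the day 5 control, 2 of 10 polarity genes were higher by 2-fold or more and 0 were lower by that much, against 8.03% and 6.7% of all 12264 genes. The median was −0.16, beside −0.15 for all genes. At the level of probe sets 5 of 24 were at least 2-fold higher (PARD6B, 2 of PRKCI and 2 of PATJ), against 8.37% of 27339. With the array medians set equal, 12.6% of all genes were past 2-fold on the higher side and 2.98% on the lower, and PALS1 reached 1.02.

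With 2 miRNAs against the day 5 control the same 2 genes were at least 2-fold higher and 0 lower, against 8.11% and 6.37% of all genes. The median of the 10 was −0.13, beside −0.16. Of the probe sets 5 of 24 were at least 2-fold higher, against 9.36%, and here 1 of DLG1 stood in place of the dim one of PRKCI. With the array medians set equal, 11% of all genes were past 2-fold on the higher side and 3.48% on the lower.

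Against the day 7 control, PARD6B and PATJ were again the 2 genes at least 2-fold higher with either mix, against 5.63% of all genes for 4 miRNAs and 6.19% for 2 miRNAs. On the lower side 0 genes passed 2-fold with 4 miRNAs and 1, MARK2, with 2 miRNAs, against 4.15% and 4.03% of all genes. The MARK2 value of −1.03 came back under 2-fold with running-median centring (−0.93), equal medians (−0.86), a pseudocount of 64 (−0.94) and the median over its probe sets (−0.60). With equal medians 9.5% (4 miRNAs) and 8.58% (2 miRNAs) of all genes were past 2-fold on the higher side, and 2.08% and 2.43% on the lower. Medians of the 10 were −0.01 with 4 miRNAs and −0.08 with 2 miRNAs, beside −0.15 and −0.16 for all genes.

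The larger mix added miR-33a and miR-210. Between the 4-miRNA and 2-miRNA arrays 0 of 10 genes differed by 2-fold or more, against 2.37% of all genes, a share at which none of 10 is no result about them, and their median was 0.05. MARK2 was farthest from 0, at 0.72 on 203942_s_at but −0.11 on 211082_x_at. CRB3 differed by 0.22, just past the probe set SD of 0.18. PRKCI was at −0.20 on 209678_s_at, but at 0.26 on 213518_at and 0.74 on the dim 209677_at.

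After 2 further days on the filter none of the 10 genes was 2-fold apart either. Between the day 7 and day 5 controls 5.76% of all genes differed by 2-fold or more, and the 10 had a median difference of 0.06. On the representative probe sets PATJ (0.76), PALS1 (0.55) and CRB3 (0.32), all of the Crumbs complex, had the highest values, followed closely by PARD3 (0.30). PARD6B (−0.71), SCRIB (−0.45) and LLGL2 (−0.36) had the lowest. The order depends on the probe set: the other kept ones gave 0.21 and 0.25 for PATJ and 0.05 for PALS1. Those of PRKCI gave 0.30 and 0.50, and that of LLGL2 gave 0.30, against −0.36 on its representative. The other kept ones of DLG1 ran from −0.63 to 0.47 and those of PARD3 from −0.96 to −0.002, and that of MARK2 was at −0.44. By its representative probe set PARD6B stood higher in miRNA cells of day 5 but lower in control cells of day 7, and PATJ higher in both. Each is against the day 5 control that these comparisons share. The −0.71 of PARD6B is 107 against 196 on 1 probe set, with the day 7 reading close to the array median, so its size is loose.

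**Figure D3:**
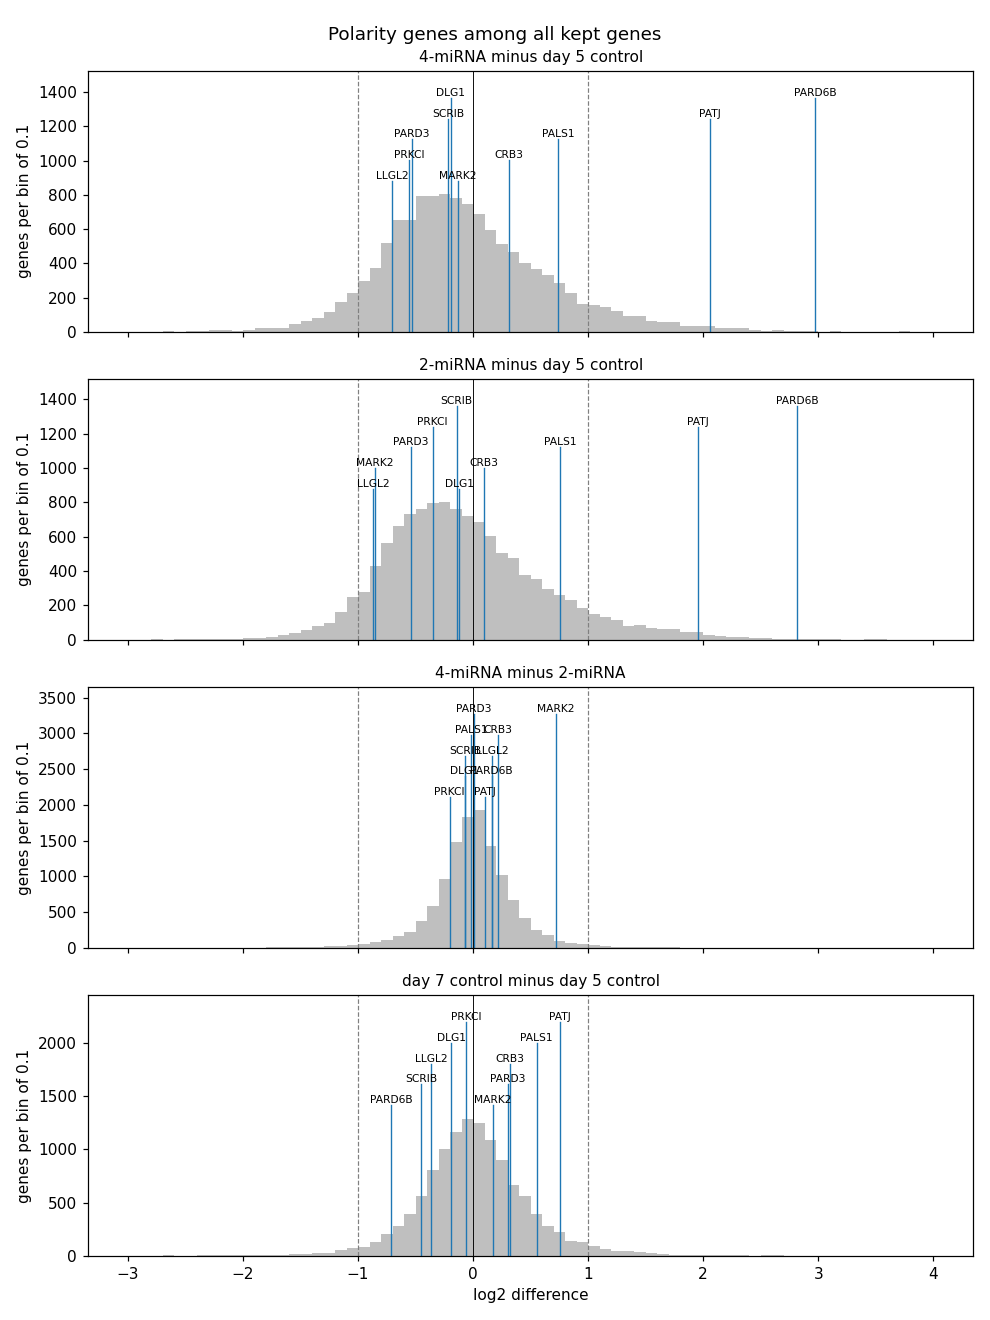
Distribution of the log2 difference over all 12264 kept genes (grey bars, genes per bin of 0.1) in 4 comparisons, with the 10 polarity genes as labelled lines. Dashed lines mark 2-fold, and genes beyond the axis are counted in the end bins. PARD6B lies in the far right tail in both miRNA comparisons with the day 5 control (2.97 and 2.81) and left of 0 between the controls (−0.71).

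Probe sets of a gene often disagreed in direction, among the polarity genes and elsewhere. Of 7 polarity genes with several kept probe sets, all were on the same side of 0 for 2 with 4 miRNAs and for 4 with 2 miRNAs against the day 5 control, beside 48% and 48.2% of 5896 genes. The median range over the probe sets of a gene was 0.82 and 0.92 in the 7 genes, beside 0.75 and 0.77. The 7 probe sets under the filter read 2.98 to 94.1 scaled units, and 5 of them lay under the array median on all 4 arrays.

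The genes most like PARD6B over the 4 arrays, by Euclidean distance of log2 values centred on each gene's mean, were ATF2 (0.57), FOLR1 (0.62) and NCKAP1 (0.66). The nearest of the other polarity genes was PATJ, at 1.93 and order 233 of 12263. PATJ itself was closest to KCTD9 (0.08), BLTP1 (0.08) and MAN1A1 (0.10), and its nearest polarity gene was PALS1 at 1.17. Profiles of 4 values allow many genes to be alike.

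Paralogs and partners of these proteins were taken from a list of 48 genes, of which 34 had a kept probe set. With 4 miRNAs 8 were at least 2-fold higher and 2 lower than the day 5 control, against 8.03% and 6.7% of all genes. With 2 miRNAs 5 were higher and 3 lower, against 8.11% and 6.37%. Against the day 7 control 3 were at least 2-fold higher with 4 miRNAs and 2 with 2 miRNAs, against 5.63% and 6.19% of all genes, and 0 were lower with either mix. Against the day 5 control the medians were −0.15 with 4 miRNAs and −0.25 with 2 miRNAs, beside −0.15 and −0.16 for all genes. Against the day 7 control they were −0.25 and −0.32, beside −0.15 and −0.16. Between the miRNA arrays none was at least 2-fold apart, and between the controls 1 was, PARD3B, the PARD3 paralog (1.21 on day 7, 368 against 141).

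MPP7, a scaffold related to PALS1 that binds DLG1, had 2549 on the 4-miRNA array, 2262 on the 2-miRNA array, and 928 (day 7) and 1049 (day 5) on the control arrays. ECT2, a protein needed for cell division, had 6060 and 7464 on the 4-miRNA and 2-miRNA arrays, against 2576 and 2621 on the day 7 and day 5 controls. These 2 of the 34 had both miRNA arrays above both controls by at least 2-fold, against 3.12% of all genes. Counting any gap, 9 of the 34 had both miRNA arrays above both controls and 19 had both below, against 22.8% and 41% of all genes. The other kept probe sets reached down to 0.26 for MPP7 and −0.37 for ECT2 with 4 miRNAs against day 5.

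PALS2, a PALS1 relative, was lowest with 4 miRNAs (−1.46, 144 against 453), and STX3, the apical syntaxin, was at −1.34 (3021 against 7681). With 2 miRNAs they were at −1.25 and −1.09. Each has another probe set above 0, at 0.54 for PALS2 and 0.29 for STX3 with 4 miRNAs. PARD3B (1.29) and LRRC1, a SCRIB relative (1.18), were among the higher ones with 4 miRNAs, and with 2 miRNAs EZR, the ezrin that links apical membrane to actin (1.22), ERBIN, a basolateral scaffold related to SCRIB (1.17), and LRRC1 (1.16). Other kept probe sets of EZR reached down to −0.44 with 4 miRNAs and −0.54 with 2 miRNAs, and that of LRRC1 was at −0.41 and −0.01, while the lowest of ERBIN was 0.61 and 0.68. The direct paralogs PARD6A and PARD6G of PARD6B were dim. With 4 miRNAs PARD6A read 150.2, against 169.8 in the day 5 control (−0.15). PARD6G read 65.3 with 4 miRNAs, under the median of that array (81.6), against 126 in the day 5 control. CDC42, the GTPase that binds PARD6B, was at 0.76 with 4 miRNAs and 0.51 with 2 miRNAs, with another probe set at −0.20 with 4 miRNAs, and PRKCZ, the paralog of PRKCI, at −0.01 and −0.23.

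**Figure D4:**
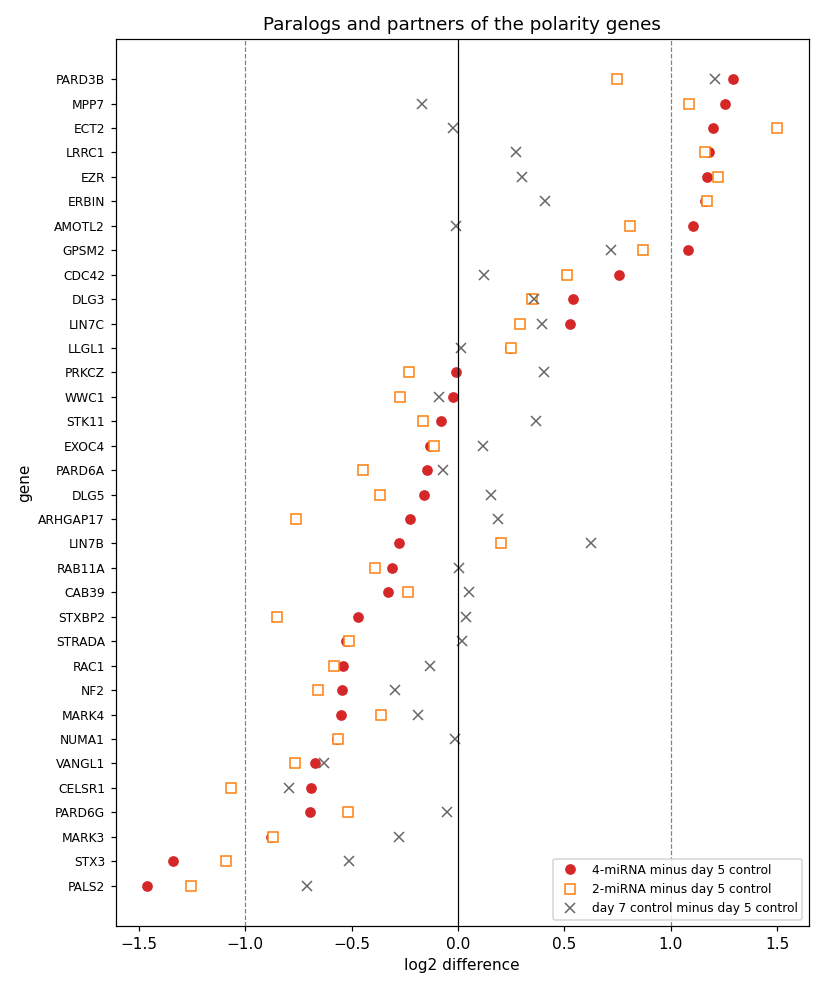
Log2 differences from the day 5 control for the 34 kept paralogs and partners, ordered by the 4-miRNA value: filled circles 4-miRNA array, open squares 2-miRNA array, crosses day 7 control. Dashed lines mark 2-fold; 8 genes lie past it on the right and 2 on the left with 4 miRNAs, and the crosses pass it for PARD3B (1.21) alone.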

How the data were processed

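RNA from T84 cells was measured on Affymetrix U133 Plus 2.0 arrays (per the labels). The deposited table holds a linear intensity per probe set that the authors made with MAS5, per the submitters' processing notes, with no version or scaling target stated there. Arrays were scaled to a 2% trimmed mean of 500 by factors of 3.33 to 6.73, and 32 was added before log2 (Python 3.11.15, numpy 2.4.6, pandas 2.3.3). Gene names came from the platform annotation, updated by gene ID through RefSeq's GRCh38.p14 table: 41097 probe sets had 1 symbol, 1801 several and 11777 none, and 41043 matched. Probe sets passed the filter on low signal, and are called kept, with a mean log2 at or over the overall median or a value at or over the 75th percentile of 1 array or more; the kept one with the highest mean represents its gene. With 1 array per group, genes were counted at a log2 difference of 1 either way, and percentages over all kept genes or probe sets are the background. All polarity genes are named; partners are named when at least 2-fold apart, at most 6 per comparison, largest first. CDC42, PRKCZ, PARD6A and PARD6G were named after their values were seen. The functions were tested on simulated data. The genes and lists were chosen with earlier results of these data known. Alternatives were quantile, running-median and equal-median scaling, pseudocounts of 16 and 64, other filters and other choices of probe set.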

Additional observations from a re-analysis of the deposited data

How the results depend on the processing

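PARD6B stayed past 2-fold against each control, from 2.65 to 3.94, under the 5 alternatives of scaling and pseudocount; the other 4 could not change it, since it has 1 kept probe set. Leaving out the probe set kinds _s_at, _x_at and _a_at, which leaves 7 genes, brought PATJ to −0.033 with 4 miRNAs against day 5, and to −0.28 with 4 miRNAs and −0.23 with 2 miRNAs against day 7, because 239173_at then represents it; PRKCI, by 213518_at, takes its place among the genes past 2-fold (1.32 with 4 miRNAs and 1.05 with 2 miRNAs against day 5, 1.02 with 4 miRNAs against day 7). Under that setting the medians were 0.31 (4 miRNAs) and 0.093 (2 miRNAs) against day 5, 0.19 and 0.20 against day 7, −0.014 between the miRNA arrays and 0.25 between the controls; with 2 miRNAs against day 7, 1 gene was past 2-fold, on the higher side (the counts of genes higher and of genes apart are then both 1); 0 genes had both miRNA arrays below both controls, and 1 had both above by at least 2-fold. With equal medians the medians were 0.11 with 4 miRNAs against day 5, 0.27 and 0.10 with 4 and 2 miRNAs against day 7, and 0.15 between the miRNA arrays, and 5 genes had both miRNA arrays above both controls. With the median over probe sets, the medians were 0.059 with 4 miRNAs against day 5 and 0.088 with 2 miRNAs against day 7; 5 genes had both miRNA arrays above, 1 of them by at least 2-fold, and 2 had both below. Except where the fewer genes or probe sets show it, the cause was not tested. The other 169 of 189 summary values moved by no more than 1.5 times (counts) or the probe set SD over the root of the number of genes (medians).

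No paired analysis was possible because each group has 1 array and no replicate numbers. Leaving out a replicate was not possible for the same reason. Detection calls were not used here. Signal was under the array median on both controls for PATJ 214705_at and on the day 5 control for PRKCI 209677_at. For PARD6B it was near the median on the day 7 control (107 against 98.99) but above it on the day 5 control (196 against 99.3).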
